A study of Mus musculus with 9 samples.

Results

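The genes described here are 7 voltage-gated potassium channel genes, Kcna1, Kcna2, Kcnab1, Kcnab2, Kcnc1, Kcnc2 and Kcnq3, of the 18193 genes that the array annotation names by probe sets of a single gene. They were read by all 19 probe sets annotated to 1 of these symbols alone, and 16 of the 19 were bright enough to be tested. The measurements are signals on 9 Affymetrix whole-genome mouse arrays, on which a probe set, of which a gene can have several, is a group of short oligonucleotides. There were 3 arrays of motor neurons taken by laser capture microdissection from SOD1-mutant mice, 3 of motor neurons captured in the same way from wild-type mice, and 3 of total cord tissue taken from wild-type animals. SOD1 encodes a cytosolic superoxide dismutase, and its mutations underlie familial amyotrophic lateral sclerosis, in which motor neurons are lost. The labels name neither the SOD1 allele nor the promoter that drives it, nor state an age, although every title carries the code D28, which they do not explain. They do not say how motor neurons were recognised, or whether arrays share an animal, so p-values measure only the spread between arrays. The source field of every array reads ventral spinal cord, while the descriptions of the tissue arrays name total cord.

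Voltage-gated potassium channels open when a membrane depolarises, let potassium leave the cell, and so end action potentials and set how fast a neuron can fire. The Shaker-type pore subunits Kcna1 and Kcna2 assemble into low-threshold channels that lie along myelinated axons beside the nodes of Ranvier, together with the cytoplasmic beta subunits Kcnab1 and Kcnab2. The Shaw-type subunits Kcnc1 and Kcnc2 form high-threshold channels that open and close quickly and are known from fast-spiking neurons, among them inhibitory interneurons. Kcnq3 is a pore subunit of the slow M-type channel, which limits repetitive firing and is switched off by acetylcholine acting on muscarinic receptors.

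The captured arrays carried the motor neuron markers that their label calls for. The summed signal of 11 motor neuron marker genes was 212863 to 224301 on SOD1-mutant arrays and 224046 to 238728 on wild-type motor neuron arrays, against 21983 to 30879 on cord arrays. The captured arrays also carried less 5′ signal. For the Gapdh control probe sets, log2 of 3′ over 5′ signal was 4.33 to 4.63 in SOD1-mutant and 3.65 to 4.52 in wild-type motor neurons, against -0.29 to -0.26 in cord. Where each probe set lies along its transcript was not analysed here, so the part of this loss in the changes below was not tested. Every array had been scaled to a trimmed mean of 2500, under which the typical (median) log2 change over the 27022 probe sets tested was -0.35 for wild-type motor neurons against cord. That median became 0.56 when each array was centred on its own median and 0.13 after quantile normalization. Changes are therefore given with the authors' scaling and, where it matters, under the other 2 scalings.

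In wild-type motor neurons against wild-type cord, the brightest probe sets of Kcna1, Kcna2 and Kcnab1 rose, while Kcnc2 and Kcnq3 fell. Each of Kcna2, Kcnab1, Kcnab2 and Kcnc1 also had a dimmer probe set that fell. Of the 16 probe sets tested, 8 were higher and 6 lower at an adjusted p under 0.05 (limma, Benjamini-Hochberg over all probe sets tested). Among all probe sets tested, 65.5% passed, 24.0% higher and 41.5% lower, and the arrays of 71.9% did not overlap, as for 14 of the 16 members, so passing was common in this comparison. That split was 12942 higher and 5269 lower after centring, 9647 and 7691 after quantile normalization, and 6494 and 11206 with the authors' scaling. Of the members 9 were higher and 5 lower after centring, and 5 and 7 after quantile normalization. The median log2 change of the 16 was -0.04, beside -0.35 for all probe sets. After centring it was 0.87 beside 0.56, and after quantile normalization -0.06 beside 0.13, so its place relative to all probe sets depended on the scaling. Of the 16, 5 were higher and 5 lower in all 3 scalings, against 22.1% higher and 19.4% lower among all probe sets. In a bulk sample such as cord, fewer cells of a type and less RNA per cell cannot be told apart.

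**Figure D1:**
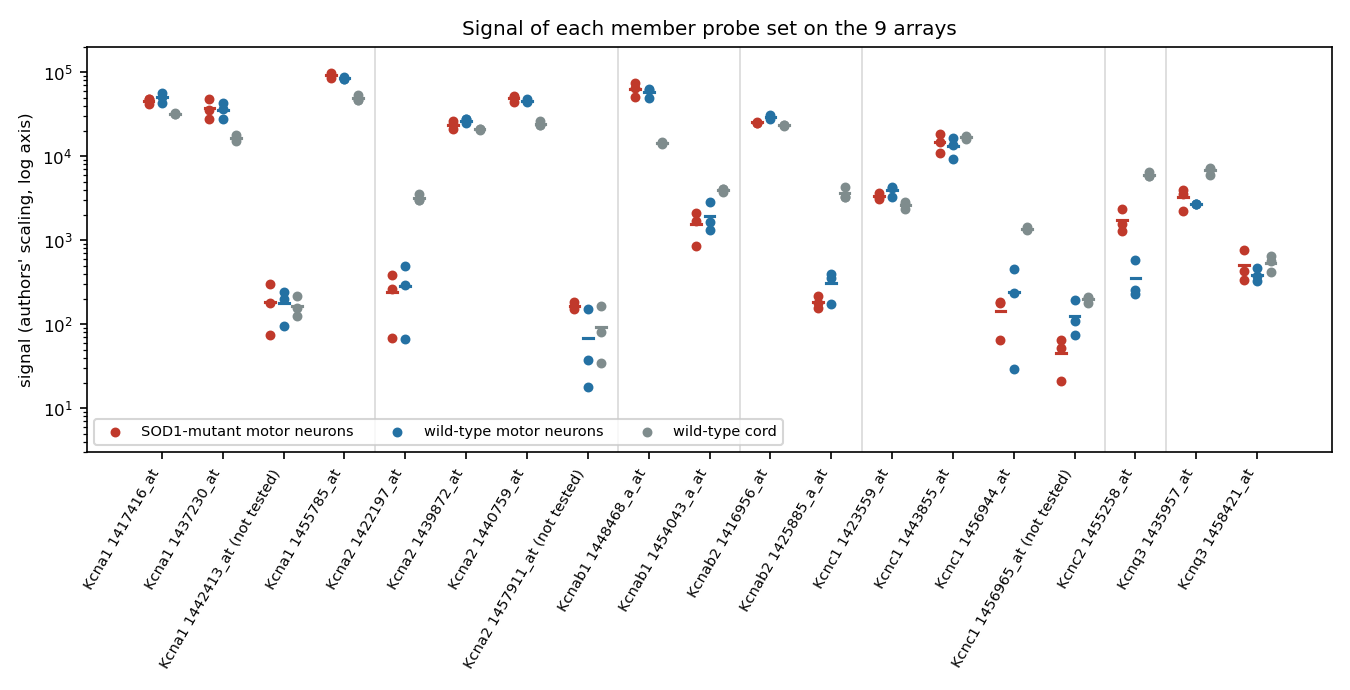
Signal of all 19 probe sets (log axis, authors' scaling) on 3 SOD1-mutant motor neuron, 3 wild-type motor neuron and 3 wild-type cord arrays. Points are arrays and short bars are group means. Kcnc2 separates into 3 levels, with 1308 to 2379 in SOD1-mutant motor neurons and 230 to 582 in wild-type motor neurons, against 5804 to 6566 in cord.

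Kcna1, a Shaker-type pore subunit whose human mutations cause episodic ataxia, had 3 bright probe sets. Its brightest, 1455785_at, read 86373, 92888 and 98970 in SOD1-mutant motor neurons, 82400, 88698 and 84125 in wild-type motor neurons, and 46227, 54220 and 47401 in cord. All captured arrays lay above all cord arrays, and the 2 genotypes overlapped. The change against cord in wild-type motor neurons was 1.73-fold (log2 fold change 0.79 ± 0.08, SE, limma adjusted p = 3.38e-05), and it stayed past the threshold after quantile normalization (0.26, adjusted p = 0.00353). The second, 1437230_at, read 27420 to 43371 in wild-type motor neurons, with cord at 15291 to 17745 (2.13-fold, log2 1.09 ± 0.15, adjusted p = 2.68e-04). The remaining bright one, 1417416_at, read 43428 to 57450 in wild-type motor neurons, against 31535 to 32808 in cord (1.56-fold, log2 0.65 ± 0.10, adjusted p = 5.27e-04), but after quantile normalization it no longer passed (0.16, adjusted p = 0.149). The 3 bright probe sets thus gave rises of 1.56-fold to 2.13-fold with the authors' scaling. The fourth, 1442413_at, was too dim to be tested, at 75.1 to 303.3 in SOD1-mutant motor neurons and 96.8 to 245.5 in wild-type motor neurons, against 126.1 to 216.0 in cord.

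Kcna2, which assembles with Kcna1, was read by 4 probe sets that did not move together. The brightest, 1440759_at, read 50717, 44116 and 52565 in SOD1-mutant motor neurons, 44469, 45128 and 48490 in wild-type motor neurons, and 23594, 26116 and 23450 in cord. Captured and cord arrays did not overlap, and the rise in wild-type motor neurons was 1.89-fold (log2 0.92 ± 0.08, adjusted p = 1.12e-05). A second, 1439872_at, read 24850 to 27569 in wild-type motor neurons, against 20780 to 21203 in cord (1.27-fold, log2 0.34 ± 0.07, adjusted p = 0.00324), a change that became -0.03 (adjusted p = 0.704) after quantile normalization. The third, 1422197_at, went the other way. It read 69.6, 260.6 and 391.7 in SOD1-mutant motor neurons and 490.7, 67.5 and 293.4 in wild-type motor neurons, against 3010, 3024 and 3598 in cord. It fell 13.3-fold in wild-type motor neurons (log2 -3.74 ± 0.55, adjusted p = 3.67e-04), with 2 of 3 arrays above background in each captured group. Its log2 change was -3.01 without wild-type motor neuron replicate 2, -3.07 after quantile normalization and -2.83 after centring. The fourth, 1457911_at, was at 152.9 to 183.7 in SOD1-mutant motor neurons and 17.9 to 152.2 in wild-type motor neurons, against 34.9 to 163.5 in cord, and was not tested.

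Kcnab1, a beta subunit that makes Shaker-type channels inactivate quickly, had the largest rise among the members. Its probe set 1448468_a_at read 73846, 50918 and 65823 in SOD1-mutant motor neurons, 64083, 49653 and 62055 in wild-type motor neurons, and 14057, 14818 and 14276 in cord. Every captured array was more than 3 times as bright as any cord array, and the rise in wild-type motor neurons was 4.05-fold (log2 2.02 ± 0.10, adjusted p = 8.21e-07). It was 1.72 on the log2 scale after quantile normalization and 2.92 after centring. The other probe set, 1454043_a_at, read 2114, 867.4 and 1679 in SOD1-mutant motor neurons, 2824, 1335 and 1659 in wild-type motor neurons, and 4082, 3762 and 4122 in cord. It fell 2.15-fold in wild-type motor neurons (log2 -1.10 ± 0.25, adjusted p = 0.00388), but not after centring (-0.20, adjusted p = 0.564).

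The ending _a_at marks probe sets that match several transcripts of 1 gene, and RefSeq lists 3 transcription starts for Kcnab1 on mouse build GRCm38.p6. Which start each of the 2 probe sets reads was not tested. The 130 bases before each start are shown because the probe sets of this gene disagree, followed by the 130 bases before the annotated gene start of Kcnc2, the member with the largest fall in wild-type motor neurons against cord. RefSeq lists 4 transcription starts for Kcnc2, all inside the gene, so its window lies upstream of them and ends at none of them. All the sequences are on the plus strand, 5′ to 3′, with matches to the GC box GGGCGG (or CCGCCC on the other strand) in capitals.
Kcnab1 start 1, chr3:64949082-64949211: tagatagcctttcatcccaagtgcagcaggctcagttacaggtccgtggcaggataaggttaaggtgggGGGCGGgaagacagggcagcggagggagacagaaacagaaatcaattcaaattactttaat
Kcnab1 start 2, chr3:65108884-65109013: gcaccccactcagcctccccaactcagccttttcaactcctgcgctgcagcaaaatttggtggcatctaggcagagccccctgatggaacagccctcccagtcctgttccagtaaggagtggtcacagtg
Kcnab1 start 3, chr3:65187973-65188102: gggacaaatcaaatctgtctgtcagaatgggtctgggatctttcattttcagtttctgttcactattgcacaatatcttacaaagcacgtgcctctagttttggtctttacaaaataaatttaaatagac
Kcnc2, chr10:112269768-112269897: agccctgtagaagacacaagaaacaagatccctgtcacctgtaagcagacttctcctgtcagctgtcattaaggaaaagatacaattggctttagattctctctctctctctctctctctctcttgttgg
The GC box occurred once before the first Kcnab1 start and in none of the other 3 windows, against 27.3% of the 32851 windows of 130 bases before RefSeq starts. The TATA box TATAAA (or TTTATA) was in none of the 4, against 6.83% of all windows. The windows held 3, 1 and 1 CG dinucleotides for Kcnab1 and 0 for Kcnc2, beside a median of 3 over all windows. RefSeq windows matched 5 of the 7 members, and Kcna1 and Kcnq3 had no entry.

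Kcnab2, the beta subunit that guides Shaker-type channels to axons, also had probe sets that moved in opposite directions. Its bright probe set, 1416956_at, read 24977, 25074 and 25886 in SOD1-mutant motor neurons, 30774, 27765 and 29322 in wild-type motor neurons, and 23565, 23639 and 22808 in cord. It was 1.25-fold higher in wild-type motor neurons than in cord (log2 0.33 ± 0.07, adjusted p = 0.00366) with the authors' scaling, and the change was -0.09 (adjusted p = 0.246) after quantile normalization. The dimmer 1425885_a_at read 157.3, 219.1 and 180.0 in SOD1-mutant motor neurons and 394.0, 175.8 and 353.5 in wild-type motor neurons, against 3244, 4323 and 3290 in cord. It fell 11.6-fold in wild-type motor neurons (log2 -3.53 ± 0.30, adjusted p = 1.28e-05) and stayed lower in all 3 scalings.

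Kcnc1, a Shaw-type pore subunit, gave no single answer over its 4 probe sets. The brightest, 1443855_at, read 10961, 18250 and 14917 in SOD1-mutant motor neurons, 9200, 16546 and 13786 in wild-type motor neurons, and 17587, 16182 and 16921 in cord. Groups overlapped, and under the authors' scaling it missed the threshold (log2 -0.40 ± 0.19, adjusted p = 0.0901). It was lower after quantile normalization (-0.67, adjusted p = 0.0104) and higher after centring (0.51, adjusted p = 0.0165), so the scaling sets its direction. Without wild-type motor neuron replicate 2 it passed as lower (-0.58, adjusted p = 0.00979). The probe set 1423559_at read 3285 to 4368 in wild-type motor neurons, against 2391 to 2844 in cord, 1.48-fold higher (log2 0.56 ± 0.15, adjusted p = 0.00843) and higher in all 3 scalings. The probe set 1456944_at read 180.1, 65.8 and 183.4 in SOD1-mutant motor neurons and 29.7, 234.6 and 459.0 in wild-type motor neurons, against 1428, 1364 and 1316 in cord. It fell 7.60-fold in wild-type motor neurons (log2 -2.93 ± 0.71, adjusted p = 0.006), with 2 of 3 arrays above background in each captured group. Its log2 change was -1.99 without wild-type motor neuron replicate 1, -3.62 without replicate 3, -2.02 after centring and -2.04 after quantile normalization. The last, 1456965_at, was too dim to be tested, with no SOD1-mutant array, 1 wild-type motor neuron array and 3 cord arrays above background.

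Kcnc2, the other Shaw-type subunit, had the largest fall of any member probe set in wild-type motor neurons against cord. Its single probe set, 1455258_at, read 2379, 1308 and 1579 in SOD1-mutant motor neurons, 254.4, 582.0 and 230.4 in wild-type motor neurons, and 5804, 6566 and 5811 in cord. No array of 1 group overlapped an array of another, and all 9 arrays were above background. It fell 17.5-fold in wild-type motor neurons against cord (log2 -4.13 ± 0.31, adjusted p = 6.66e-06), and its log2 change was -3.23 after centring. In SOD1-mutant motor neurons it fell 3.53-fold against the same cord arrays (log2 -1.82 ± 0.22, adjusted p = 1.38e-04).

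Markers of inhibitory interneurons, a cell class in which Shaw-type channels are well known, fell as Kcnc2 did, but so did markers of other cells. The summed signal of 9 inhibitory markers was 29860 to 49108 in SOD1-mutant motor neurons and 30158 to 32448 in wild-type motor neurons, against 111476 to 118625 in cord. In wild-type motor neurons all 8 markers tested fell with the authors' scaling and after quantile normalization, and 5 of 8 did after centring (list median -4.46, beside -0.35 for all probe sets). Of all 27022 probe sets tested, 11206 were lower with the authors' scaling, 7691 after quantile normalization and 5269 after centring. The glycine transporter gene Slc6a5 read 9293 to 11050 in wild-type motor neurons, against 19277 to 20283 in cord, 2.0-fold lower. The calcium-binding protein gene Pvalb read 10397 to 11758 in wild-type motor neurons, against 19837 to 21030 in cord, 1.82-fold lower, and the vesicular GABA transporter gene Slc32a1 was 1.68-fold lower. After centring these 3, the markers of highest mean, stood at -0.09, 0.04 and 0.16 on the log2 scale and did not pass. The 5 that fell in all 3 scalings were Gad1, Gad2, Calb1, Sst and Npy. With the authors' scaling their falls ran from 19.4-fold (Npy) to 48.5-fold (Sst). Of the 9 markers, 7 stayed above background on all arrays of each captured group, and Lhx1 lay below it on all of them. With the authors' scaling other lists also fell in wild-type motor neurons, with medians of -3.17 (excitatory and dorsal horn), -2.09 (oligodendrocyte) and -3.19 (astrocyte). Medians were -3.49 for microglia and -3.45 for vascular and meningeal markers. The part of any of these cells in the Kcnc2 result was not tested.

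Kcnq3, a pore subunit of the M-type channel, was lower in captured motor neurons on its brighter probe set. That probe set, 1435957_at, read 2256, 4019 and 3523 in SOD1-mutant motor neurons, 2717, 2739 and 2684 in wild-type motor neurons, and 5994, 7348 and 7072 in cord. Captured and cord arrays did not overlap. It fell 2.49-fold in wild-type motor neurons (log2 -1.31 ± 0.11, adjusted p = 1.44e-05), and it stayed lower after centring (-0.41, adjusted p = 0.0249) and quantile normalization (-1.13, adjusted p = 6.13e-05). The dim 1458421_at, at 328.9 to 466.5 in wild-type motor neurons, against 424.2 to 644.5 in cord, overlapped and did not pass (log2 -0.46 ± 0.30, adjusted p = 0.207), and the sign of its change turned under both other scalings.

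Disagreement between probe sets of 1 gene was common on these arrays. Among the 3722 genes that had at least 2 called probe sets in wild-type motor neurons against cord, 34.7% had calls in both directions. Among the members, 5 genes had 2 or more called probe sets, and in 4 of them, Kcna2, Kcnab1, Kcnab2 and Kcnc1, the calls went both ways. In each of the 4 the brightest called probe set was the one that was higher, as it was in 85.0% of all genes called both ways. Over the 6010 genes with 2 or more tested probe sets, the median log2 change was 0.06 on the brightest probe set and -0.69 on the dimmest.

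**Figure D2:**
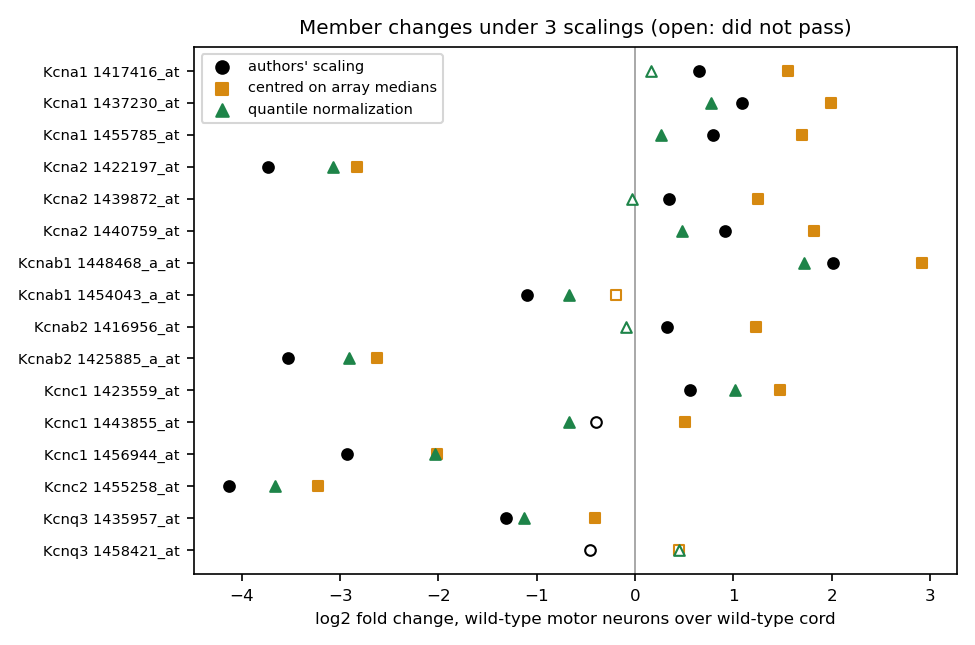
Log2 fold change of wild-type motor neurons over wild-type cord for the 16 member probe sets tested, under the authors' scaling, centring and quantile normalization. Filled symbols passed an adjusted p of 0.05. Kcnc2 stays between -4.13 and -3.23, whereas Kcnc1 1443855_at runs from -0.67 to 0.51.

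SOD1-mutant motor neurons were set against the same 3 cord arrays, so that these changes share their cord values with those above, and genotype and capture cannot be told apart in them. Of the 16 probe sets, 5 were higher and 6 lower, and among all probe sets 62.1% passed, 21.9% higher and 40.2% lower. The members split into 9 higher and 4 lower after centring, and 5 and 8 after quantile normalization. Arrays did not overlap for 13 of the 16, against 70.0% of all probe sets. In all 3 scalings 4 were higher and 4 lower, against 20.0% and 18.7% of all probe sets. Over all probe sets 5925 were higher and 10859 lower, against 11599 and 5157 after centring and 9001 and 7369 after quantile normalization. Kcnab1 1448468_a_at was 4.36-fold higher (log2 2.12 ± 0.14, adjusted p = 6.86e-06) and Kcna2 1440759_at 2.01-fold higher (1.01 ± 0.11, adjusted p = 7.66e-05). Each of these genes also had a dimmer probe set called lower. Kcna2 1422197_at fell 14.7-fold (-3.88 ± 0.50, adjusted p = 2.29e-04), with 2 of 3 mutant arrays above background. Kcnab1 1454043_a_at fell 2.71-fold (-1.44 ± 0.295, adjusted p = 0.00289), but not after centring (-0.59, adjusted p = 0.201). All 3 bright probe sets of Kcna1 rose, by 0.50 to 1.14 on the log2 scale, although 1417416_at was at -0.03 (adjusted p = 0.776) after quantile normalization. The largest fall was that of Kcnab2 1425885_a_at, 17.7-fold (log2 -4.14 ± 0.23, adjusted p = 3.21e-06), with 2 of 3 mutant arrays above background. None was far above it: the mutant arrays read 157.3, 219.1 and 180.0, beside backgrounds of 157.3, 244.0 and 175.8. The size of this fall is therefore limited by background. Kcnq3 1435957_at fell 2.13-fold (-1.09 ± 0.21, adjusted p = 0.00232) but not after centring (-0.24, adjusted p = 0.301). Kcnab2 1416956_at did not pass (0.12 ± 0.09, adjusted p = 0.276), but was higher after centring (0.96, adjusted p = 4.27e-04) and lower after quantile normalization (-0.31, adjusted p = 0.00763). Kcna2 1439872_at did not pass (0.18 ± 0.11, adjusted p = 0.189), was higher after centring (1.02, adjusted p = 0.00147) and stood at -0.20 (adjusted p = 0.114) after quantile normalization. Kcnc1 1423559_at did not pass with the authors' scaling (0.33 ± 0.14, adjusted p = 0.0653) but was higher after centring (1.18, adjusted p = 0.00104) and quantile normalization (0.84, adjusted p = 0.00116). Kcnc1 1443855_at stood at -0.23 (adjusted p = 0.281), was higher after centring (0.62, adjusted p = 0.00529) and lower after quantile normalization (-0.51, adjusted p = 0.0293). Without SOD1-mutant replicate 2 all 3 passed, Kcna2 1439872_at at 0.27 (adjusted p = 0.0235), Kcnc1 1423559_at at 0.38 (adjusted p = 0.0375) and Kcnc1 1443855_at at -0.40 (adjusted p = 0.0337).

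**Figure D3:**
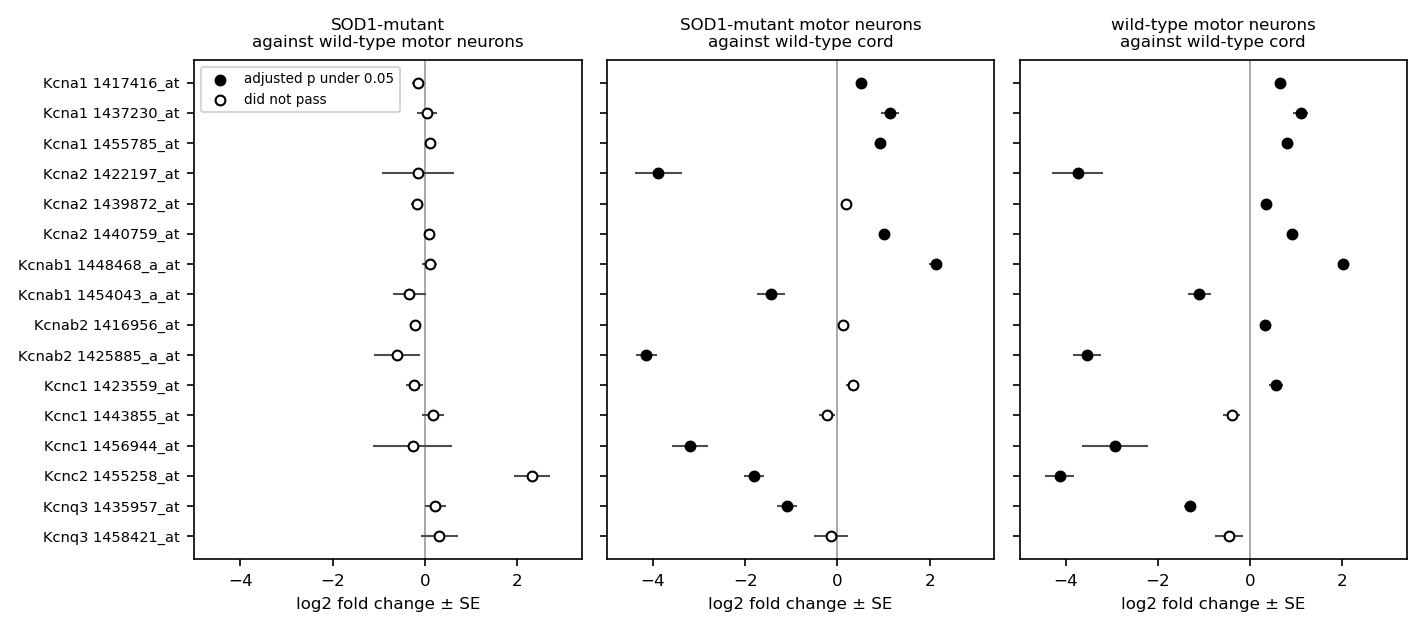
Log2 fold change with its SE for the 16 member probe sets tested in 3 comparisons, of which both comparisons with cord share the cord arrays. Filled points passed an adjusted p of 0.05. No member passed between the genotypes, where Kcnc2 stands at 2.31 and the other 15 lie between -0.61 and 0.31.

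The comparison of SOD1-mutant with wild-type motor neurons asks how these channel genes differ with the mutation. None of the 16 probe sets passed (limma, adjusted p under 0.05), and 0.222% of all probe sets tested passed, 0.152% higher and 0.0703% lower. An unadjusted p under 0.05 was found for 1 of the 16, against 15.2% of all probe sets. That 1 was Kcnc2, whose 3 mutant arrays, at 1308 to 2379, all lay above the 3 wild-type arrays, at 230 to 582. The difference was 4.97-fold (log2 2.31 ± 0.39, SE, limma adjusted p = 0.0501), just outside the threshold. Kcnc2 ranked 61 by p-value and 56 by log2 change among the 27022 probe sets, and 60 passed. Its log2 change was 2.07 to 2.71 under 17 other settings, a count that leaves out the fit with replicate number as a blocking factor (given at the end). Of the 17, 6 gave an adjusted p under 0.05. Adjusted p over the 17 ran from 1.8e-06 with array weights to 0.317 without wild-type replicate 3. Leaving out wild-type replicate 2 gave 0.0434, and leaving out any 1 of the other 5 arrays gave 0.053 or more. The result thus sits at the edge of the test: the groups did not overlap, as they did not for 22.3% of all probe sets, and the call depended on the setting.

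**Figure D4:**
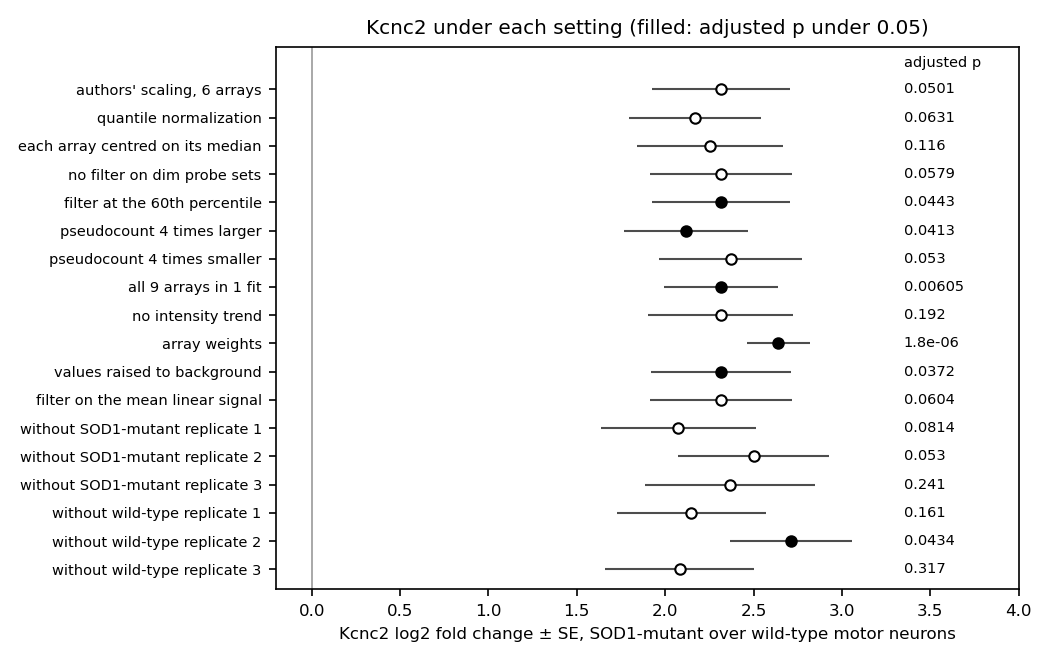
Kcnc2 log2 fold change with its SE, SOD1-mutant over wild-type motor neurons, under the authors' scaling and 17 other settings, with the adjusted p at the right. The fit with replicate number as a blocking factor is not shown. Filled points passed 0.05. The change stays between 2.07 and 2.71 while the adjusted p runs from 1.8e-06 to 0.317.

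Summed signals of some markers of other cells were also higher on mutant than on wild-type captured arrays. The summed signal of 10 astrocyte markers was 69555 to 77563 on SOD1-mutant and 30932 to 48394 on wild-type arrays, against 277419 to 294582 in cord. On their brightest probe sets 1 of the 10 passed, against 0.222% of all probe sets, and 6 had an unadjusted p under 0.05, against 15.2%. The 1 that passed was the gap junction gene Gja1 (25386 to 35340 in mutant and 11282 to 13189 in wild-type motor neurons, log2 1.25 ± 0.15, adjusted p = 0.017). The list median was 0.92 beside -0.01 for all probe sets. None of 8 inhibitory interneuron markers passed, 3 had an unadjusted p under 0.05 (15.2% of all probe sets did), and their median was 0.67. Among them Pvalb read 11594, 22772 and 16586 in mutant against 10397, 11711 and 11758 in wild-type motor neurons (log2 0.54 ± 0.22, adjusted p = 0.279). Slc6a5 read 11100, 6900 and 9263 in mutant against 11050, 9293 and 9360 in wild-type motor neurons (-0.15 ± 0.19, adjusted p = 0.755). The log2 change was 0.80 for Gad1, 1.16 for Gad2, 1.47 for Calb1 and 0.96 for Sst. It was -0.05 for Slc32a1 and -0.22 for Npy. Of these markers only Gad1 had mutant and wild-type arrays that did not overlap, as for 22.3% of all probe sets. The summed oligodendrocyte markers were 354234 to 368833 on mutant and 298207 to 324416 on wild-type arrays. None of the 11 tested passed, and 3 had an unadjusted p under 0.05 (15.2% of all probe sets did). Their median was 0.15, with negative changes for Mog, Opalin and Mal. The part of such cells in the Kcnc2 difference was not tested.

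The other members gave differences between the genotypes of -0.61 to 0.31 on the log2 scale, none past the threshold. Kcnab2 1416956_at was the only other probe set whose arrays did not overlap, at 24977 to 25886 in mutant and 27765 to 30774 in wild-type motor neurons (log2 -0.21 ± 0.12, adjusted p = 0.426). For Kcna1 1455785_at the difference was 0.12 ± 0.11 (adjusted p = 0.62), for Kcna2 1440759_at 0.09 ± 0.12 (adjusted p = 0.758) and for Kcnab1 1448468_a_at 0.11 ± 0.16 (adjusted p = 0.784). Dim probe sets had wide errors, as with Kcnc1 1456944_at (-0.27 ± 0.86, adjusted p = 0.912) and Kcna2 1422197_at (-0.15 ± 0.78, adjusted p = 0.95).

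The rest of the family was read from a list of 35 other pore subunits, of which 26 were analysed here and 18 tested. In wild-type motor neurons against cord 7 rose and 5 fell with the authors' scaling, with a median log2 change of -0.10, beside -0.35 for all probe sets. After centring 11 were higher and 3 lower, and after quantile normalization 10 and 4. Of all 27022 probe sets tested, 24.0% were higher and 41.5% lower with the authors' scaling. Centring gave 12942 higher and 5269 lower, and quantile normalization 9647 and 7691. Each listed gene was read on its brightest probe set. Over all genes with 2 or more tested probe sets, the brightest had a median log2 change of 0.06. The largest rises were those of Kcng4 (6.51-fold, log2 2.70 ± 0.12, adjusted p = 4.68e-07) and Kcng1 (4.94-fold), subunits that are silent alone and modify other channels. Kcng4 read 22050 to 29210 in wild-type motor neurons, against 3576 to 4178 in cord. The Shaker-type Kcna6 rose 3.43-fold on its brightest probe set, with its other 2 tested probe sets called lower, and the A-type subunit Kcnd1 rose 2.67-fold. The largest falls were those of Kcnh8, an ether-a-go-go-type subunit (7.01-fold), Kcna4 (6.42-fold), Kcna3 (4.90-fold) and Kcnd2 (4.68-fold). Of the 3 wild-type motor neuron arrays, 1 was above background for Kcnh8, 2 for Kcna4 and 1 for Kcna3, whose arrays overlapped those of cord. The Kcna3 fall was lost both after centring (adjusted p = 0.136) and after quantiles were matched (adjusted p = 0.144).

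In SOD1-mutant motor neurons against cord 8 of these 18 rose and 5 fell (centred, 10 and 3, and with quantile normalization 10 and 4). Among all 27022 probe sets 21.9% were higher and 40.2% lower with the authors' scaling. Centring gave 11599 higher and 5157 lower, and quantile normalization 9001 and 7369. Kcng4 was 5.02-fold, Kcna6 3.79-fold, Kcng1 3.47-fold and the Shaw-type Kcnc4 2.79-fold higher, with a second Kcnc4 probe set called lower. Kcna4 lay below background on all 3 mutant arrays and was at least 3.56-fold lower. Kcnh8 was 5.25-fold lower, with 1 of 3 mutant arrays above background, and Kcnd2 was 3.12-fold lower. Kcnd3, 1.78-fold lower, was at 0.01 after centring. Between the genotypes none of the 18 passed and 5 had an unadjusted p under 0.05, against 15.2% of all probe sets. Kcng4 read 16208 to 21990 in mutant and 22050 to 29210 in wild-type motor neurons (log2 -0.38 ± 0.16, adjusted p = 0.312), and Kcnc4 differed by 0.13 ± 0.14 (adjusted p = 0.709).

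Among 13 other auxiliary subunits 12 were analysed and 9 tested, with 2 higher and 4 lower in wild-type motor neurons (centred, 5 and 3, and with quantile normalization 2 and 3). Over all 27022 probe sets 24.0% were higher and 41.5% lower there, and 12942 and 5269 after centring. For SOD1-mutant motor neurons against cord these were 21.9% and 40.2%, and 11599 and 5157 after centring. The 2 auxiliary subunits that rose in wild-type motor neurons were Amigo1, a partner of Shab-type channels (2.97-fold, log2 1.57 ± 0.13, adjusted p = 8.46e-06), and Dpp10, a partner of A-type channels (2.24-fold). Kcnip2, a calcium-binding partner of A-type channels, was below background on each wild-type motor neuron array and was at least 12.2-fold lower. Kcne4, also below background there, was at least 3.28-fold lower. Kcnip3 fell 18.1-fold, with 1 of 3 arrays above background. The remaining beta subunit, Kcnab3, fell 2.42-fold, a call lost under centring (adjusted p = 0.137) and under quantile normalization (adjusted p = 0.0824). In SOD1-mutant motor neurons 2 rose and 3 fell (4 and 3 after centring): Amigo1 3.39-fold and Dpp10 2.60-fold higher, and Kcnip2 14.3-fold (1 of 3 mutant arrays above background), Kcnip3 12.4-fold and Kcnab3 4.62-fold lower. Between the genotypes none of the 9 passed and 2 had an unadjusted p under 0.05 (15.2% of all probe sets did), with Dpp6 at -0.11 ± 0.17 (adjusted p = 0.792) and Dpp10 at 0.22 ± 0.16 (adjusted p = 0.535). The largest difference of the 9 was that of Kcne4, at 215.8 to 590.3 in mutant and 17.0 to 82.5 in wild-type motor neurons. It was at least 2.23-fold higher in the mutant, without overlap of arrays (log2 2.68 ± 0.74, limma adjusted p = 0.146).

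**Figure D5:**
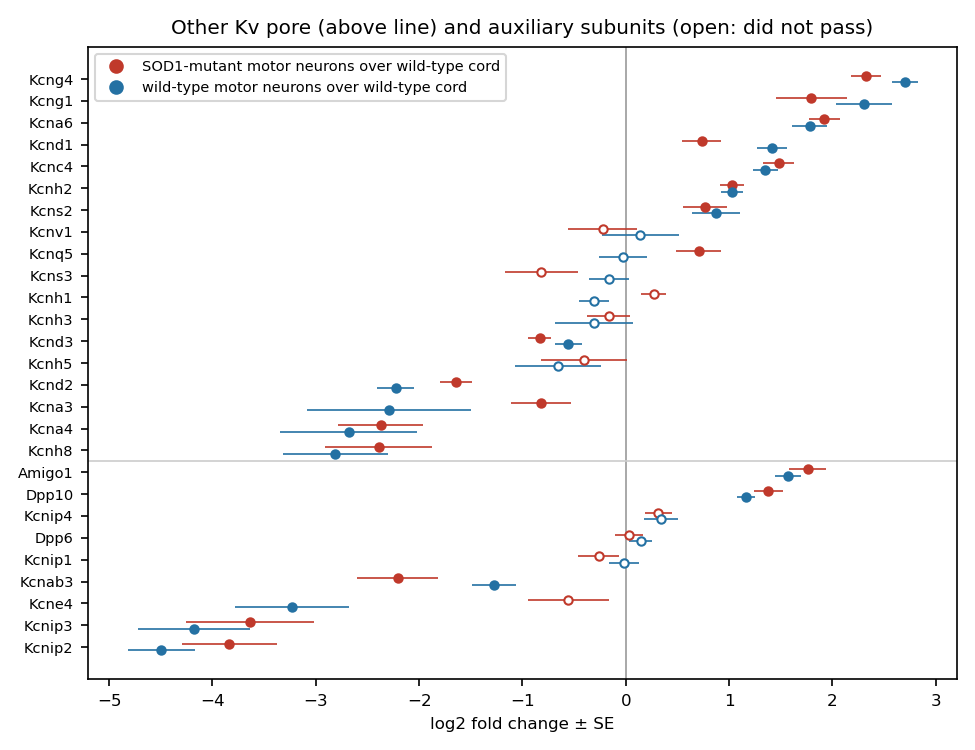
Log2 fold change with its SE of 18 other pore subunits and 9 other auxiliary subunits, for SOD1-mutant and wild-type motor neurons over the same wild-type cord arrays. Filled points passed an adjusted p of 0.05. Kcng4 stands at 2.33 in mutant and 2.70 in wild-type motor neurons, and Kcnip2 at -3.84 in mutant and -4.50 in wild-type motor neurons.

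Proteins that hold Shaker- and M-type channels in place on axons were read from a list of 16 genes, 15 of them tested. In wild-type motor neurons 5 rose and 6 fell against cord (centred, 11 and 3, and with quantile normalization 3 and 7). Over all 27022 probe sets 24.0% were higher and 41.5% lower there, and 12942 and 5269 after centring. For SOD1-mutant motor neurons against cord these were 21.9% and 40.2%, and 11599 and 5157 after centring. Cntnap2, which clusters Shaker-type channels beside the node, read 21281 to 24149 in wild-type motor neurons, against 6273 to 6394 in cord (3.52-fold, log2 1.81 ± 0.08, adjusted p = 5.35e-07), with 1 of its 3 probe sets called lower. Its partner Cntn2 fell 1.95-fold (log2 -0.97 ± 0.10, adjusted p = 4.17e-05), and stood at -0.06 after centring. Adam23, a receptor of the secreted protein Lgi1, rose 2.94-fold while Lgi1 fell 5.81-fold, and the adhesion gene Nrcam rose 1.63-fold. Epb41l3, a cytoskeletal linker, rose 1.56-fold, but not after quantile normalization (0.11, adjusted p = 0.179), and 1 of its 3 probe sets was called lower. The scaffold gene Dlg4 fell 3.46-fold and the adhesion gene Nfasc 3.07-fold. In SOD1-mutant motor neurons 6 of the 15 rose and 5 fell (centred, 8 and 3, and with quantile normalization 3 and 7), with Adam23 4.01-fold and Cntnap2 2.97-fold higher and Lgi1 6.13-fold and Dlg4 2.97-fold lower. Between the genotypes none passed and 3 had an unadjusted p under 0.05 (15.2% of all probe sets did). Ank3, which anchors M-type channels at the axon initial segment, read 27239 to 34474 in mutant and 37201 to 43821 in wild-type motor neurons (log2 -0.36 ± 0.14, adjusted p = 0.255).

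The genes whose pattern over the 9 arrays lay closest to a member were found by the root mean square difference of log2 signals after each gene's own mean was taken off. Closest to Kcna1 were Atp2a2, the calcium pump of the endoplasmic reticulum (0.03), and Rundc3b (0.04). Closest to Kcna2 were Tbc1d19 (0.05) and Mrps33 (0.07), and closest to Kcnab1 were Rgs2 (0.10), a regulator of G-protein signalling, and Nlgn2 (0.12), an adhesion protein of inhibitory synapses. For Kcnab2 they were Ints10 (0.03) and Med8 (0.05), for Kcnc1 Zfp46 (0.10) and Sass6 (0.11), and for Kcnq3 Tmcc2 (0.10) and Ddost (0.12). Kcnc2 had the least close match of the 7: Col15a1, a collagen of basement membranes, at 0.37, and Itgb8, an integrin subunit, at 0.45. The measure is not scaled to the spread of a profile, so flat profiles come close more easily than 1 that varies as widely as Kcnc2. Col15a1 read 23.3 to 83.3 in wild-type motor neurons, below the backgrounds of 131.0 to 146.7 there. Of the mutant arrays only replicate 1 was above background for it (305.5 beside 157.3). Itgb8 read 7014, 3463 and 3573 in SOD1-mutant motor neurons, 1515, 1313 and 1106 in wild-type motor neurons, and 13103, 16015 and 15722 in cord. Like Kcnc2 it had the mutant arrays between the wild-type motor neuron and the cord arrays, which is what closeness by this measure selects for.

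The other marker lists describe what each sample held. Of 11 motor neuron markers tested, 9 rose in wild-type motor neurons against cord and none fell, with Chodl 15.8-fold, Prph 11.2-fold and Ret 3.50-fold higher. A second Ret probe set was called lower. Chat (log2 0.615 ± 0.28, adjusted p = 0.0816) and Lhx3 (0.79 ± 0.34, adjusted p = 0.0672) did not pass with the authors' scaling. Both were higher under the other scalings. All 11 oligodendrocyte markers tested fell (8 after centring, with 1 then higher), as did all 10 astrocyte, all 9 microglia and all 9 vascular and meningeal markers (8 under either other scaling). Of 7 excitatory interneuron and dorsal horn markers, 6 fell (5 under either other scaling) and 1, Cck, rose. Among all probe sets 24.0% were higher and 41.5% lower in wild-type motor neurons against cord with the authors' scaling. Between the genotypes 1 marker passed on its brightest probe set in all 7 lists together, Gja1, and 0.222% of all probe sets passed. The astrocyte glutamate transporter gene Slc1a2 stood at -0.30 (adjusted p = 0.696) on its brightest probe set, while 1 of its other 2 tested probe sets was called higher. The summed microglia markers were 5129 to 6440 in SOD1-mutant motor neurons and 4002 to 4405 in wild-type motor neurons, against 52266 to 56942 in cord. Vascular and meningeal markers summed to 6827 to 8589 in mutant and 5947 to 9015 in wild-type motor neurons, against 68721 to 162917 in cord. Excitatory markers summed to 12893 to 22508 in mutant and 16669 to 21190 in wild-type motor neurons, against 54468 to 55752 in cord.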

How the data were processed

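Sample descriptions gave the groups, and titles the replicate numbers. The values are linear signal intensities per probe set, deposited by the authors and already scaled to a common trimmed mean (2% off each end). The sources used here do not name the software that made them. Tests used log2 of signal plus 20.3, a pseudocount set at percentile 10 of the deposited values, which understates the fold change of a dim probe set. Of 45101 probe sets, 64 controls were left out, and 27022 were tested, those with a mean log2 signal (over the means of the 3 groups) past percentile 40. Each comparison was fitted on its 6 arrays with limma 3.58.1 in R 4.3.3 (lmFit, eBayes with trend, two-sided), with Benjamini-Hochberg adjustment over all 27022 and a threshold of 0.05. The 3 arrays per group limit the precision. Each array's background was set at percentile 95 of its 27 control probe sets for Bacillus transcripts. Where a group lay below it on all arrays, a change is given as "at least", the bright group's mean log2 value against the higher of background and signal on the dim arrays. A gene outside the members is represented by its tested probe set of highest mean. Symbols were updated by gene ID to RefSeq on GRCm38.p6.

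The members and lists were chosen with earlier results of these data known. Named genes followed a rule: all members, from each channel list up to 4 largest rises and falls (or the 2 of highest mean), from each marker list the 3 of highest mean, and the 2 closest profiles per member. The text describes some of those the rule allows. Values named outside the rule were chosen after they were seen.

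On simulated arrays with 200 of 27022 probe sets changed, changes of 2 on the log2 scale were recovered in 67% for wild-type motor neurons against cord, 52% between mutant and wild-type motor neurons and 68% for mutant motor neurons against cord, and changes of 1 in 42%, 23% and 33%. In the data 65.5% and 62.1% of all probe sets passed against cord. The simulated rates for cord therefore do not give the power of those tests. The rates between the genotypes hold for the simulated setting alone. It had 200 changed probe sets and independent normal noise with each probe set's own spread. Alternatives were quantile normalization, centring, no filter on dim probe sets or a stricter one (percentile 60), pseudocounts 4 times as large or as small, a joint fit of all 9 arrays, eBayes without the intensity trend, array weights, values raised to background, replicate number as a blocking factor, and omission of each array in turn. A filter on mean linear signal was added after the data were seen. Figures were drawn with matplotlib 3.10.9.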

Additional observations from a re-analysis of the deposited data

How the results depend on the processing

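Between SOD1-mutant and wild-type motor neurons, 60 probe sets passed, and the count was 32 after quantile normalization, 20 after centring, 1184 with all 9 arrays in 1 fit, 3 without the intensity trend, 97 with values raised to background and 13777 with array weights. The weights gave 10.8 to wild-type replicate 3 and 0.43 to each of the other wild-type motor neuron arrays. Member probe sets passing there numbered 0, against 1 with the filter at the 60th percentile, the larger pseudocount, all 9 arrays or values raised to background, and 7 with array weights. Leaving out 1 array gave 6 to 71 probe sets and 0 to 1 members (7 without SOD1-mutant replicate 3, 11, 13 and 6 without wild-type replicates 1, 2 and 3). Deviations of same-numbered arrays correlated at 0.145, 0.171 and 0.002 between the genotypes, and those of unlike-numbered arrays at -0.185 to 0.063. The value of 0.002 lay within the latter range, and the numbers were not taken as pairing the samples. With the replicate block 443 probe sets and 1 member passed, and Kcnc2 had an adjusted p of 0.031. For wild-type motor neurons against cord, leaving out 1 array gave 15477 to 18336 probe sets and 14 to 15 members, and for SOD1-mutant motor neurons against cord 14255 to 17903 and 11 to 14. The direction turned after quantile normalization for Kcnab2 1416956_at (-0.094) and Kcna2 1439872_at (-0.032) in wild-type motor neurons against cord, and for Kcnab2 1416956_at (-0.31) and Kcna1 1417416_at (-0.028) in SOD1-mutant motor neurons against cord. It turned after centring for Kcnc1 1443855_at, at 0.62 in SOD1-mutant and 0.51 in wild-type motor neurons. Among changes that passed under none or only some scalings, Kcna2 1439872_at in SOD1-mutant motor neurons against cord turned to -0.20 after quantile normalization. Kcnq3 1458421_at turned to 0.71 in SOD1-mutant and 0.45 in wild-type motor neurons after centring, and to 0.75 in SOD1-mutant and 0.45 in wild-type motor neurons after quantile normalization, without passing. The cause of these shifts was not tested. The 3 arrays per group and signals near background limit the dim probe sets.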
